A study of Rattus norvegicus with 24 samples.

Results

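The genes described are 8 receptors of natural killer (NK) cells, Klrd1, Klrk1, Klrc1, Klre1, Klrg1, Ncr1, Ncr3 and Cd244, in the blood of rats given lipopolysaccharide (LPS) and fed oat beta-glucans. Their probes were found by gene symbol. The array carries 11 probes for them, of 30367 probes with 25885 gene names in all. RNA of peripheral blood from single rats was hybridised on 24 two-color rat microarrays, 4 in each of 6 groups, and a pooled reference RNA was labelled with the second dye. All rats were male Sprague Dawley, 8 weeks old at the start, and ate a semi-synthetic diet for 6 weeks. C-G0, C-G1 and C-G2 were injected with saline, and LPS-G0, LPS-G1 and LPS-G2 with Escherichia coli LPS at 10 mg per kg into the tail vein, by which the study induces enteritis. The G0 diet held no beta-glucan, the G1 diet held 1% oat beta-glucan of high molecular weight and the G2 diet held 1% of low molecular weight. Each array held 1 rat, so the replicates were separate animals. The labels call the reference a pool of all rats of the experiment, and the methods a pool of rats that were not put on arrays, so a ratio compares a rat with pooled animals of the same study.

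Values are log2 ratios of the rat RNA, in the Cy3 dye, over the reference, in Cy5. The sample labels give the dyes this way and the study's methods give them the other way round, in which case every sign below would turn. The arrays differed from each other more in Cy3 (median SD of log2 signal 0.383) than in Cy5 (0.257) over 7074 probes that were bright in both channels, and Cy3 had the larger SD for 95.3% of them. Rats differ from each other and a reference does not, so Cy3 was read as the rat channel. In LPS-G0, replicates 3 and 4 are named as LPS rats in their titles and as control in another field. They were kept as LPS-G0 and left out in an alternative. The scanner software marks each spot as well above background or not, and per array 7786 to 15385 probes passed in Cy3 and 14400 to 22449 in Cy5. Blood was recognisable in the arrays, with 7 of 8 erythroid markers, 6 of 6 platelet markers, 6 of 10 T cell markers, 5 of 9 neutrophil markers and 5 of 8 B cell markers well above background on all 24. The array C-G0 replicate 1 lay below the other C-G0 arrays in Klre1, Klrd1 and the mean of the cytotoxic genes. It was also the lowest of them in the means of the T cell (-0.43), B cell (-0.52), monocyte (-0.71) and neutrophil (-0.27) markers. It was the highest of them in the means of the erythroid (0.27) and platelet (0.36) markers and in the brighter Klrk1 probe (0.35). Values without this array are given beside the comparisons with C-G0. Fewer NK cells and less RNA per NK cell cannot be told apart in whole blood.

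NK cells are lymphocytes that kill infected or transformed cells without prior priming, and they decide by summing signals from inhibitory and activating receptors. Klrd1 (CD94) pairs with members of the NKG2 family, such as the inhibitory Klrc1 (NKG2A), to read nonclassical MHC class I molecules on other cells. Klrk1 (NKG2D) is an activating receptor for stress-induced ligands, Ncr1 (NKp46) and Ncr3 (NKp30) are natural cytotoxicity receptors, Klrg1 marks mature NK cells and T cells and binds cadherins, and Cd244 (2B4) binds Cd48 on neighbouring leukocytes. Klre1 is a lectin-like receptor of rodents that acts with partner chains of the same family. Klrd1 and Klrk1 are also found on subsets of T cells.

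By the positions in the array files (assembly rn4), Klre1, Klrd1, Klrk1 and Klrc1 lie side by side on chromosome 4, where their 5 probes span 114.0 kb in the NK gene complex. Klrg1 lies elsewhere on chromosome 4, Ncr1 on chromosome 1, Ncr3 on chromosome 20 and Cd244 on chromosome 13. The 60-base probes of Klrd1 and Klre1, which carry the main comparison, are shown with 1 probe each of Klrk1 and Cd244, the genes whose probes gave different results. The probes that represent Klrk1 and Cd244 in the fold changes, A_64_P049406 and A_64_P099521, are given by position only. Klrd1 has 1 probe at chr4:166878801-166878860 on the plus strand, and Klre1 has 1 probe that spans chr4:166862168-166863136, over a stretch of 969 bases, on the plus strand, so it crosses an intron. Klrk1 has 2 probes on the minus strand, A_64_P121826 at chr4:166915203-166915262 and A_64_P049406 at chr4:166914786-166914843. The capitals in the first mark the stop codon that ends its open reading frame, and the second starts 419 bases further 3′ in the same transcript.
Klrd1 probe A_64_P161388: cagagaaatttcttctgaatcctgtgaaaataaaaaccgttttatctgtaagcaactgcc
Klre1 probe A_44_P536089: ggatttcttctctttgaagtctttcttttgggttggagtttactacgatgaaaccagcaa
Klrk1 probe A_64_P121826: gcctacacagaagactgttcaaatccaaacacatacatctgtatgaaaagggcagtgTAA
Cd244 probe A_64_P157209, assigned to Cd244l1 in RefSeq: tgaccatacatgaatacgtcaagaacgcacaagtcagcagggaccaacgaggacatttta
The 3 probes named Cd244 do not carry the same accession. A_64_P157209 (chr13:87526864-87526923) and A_44_P440207 (chr13:87522232-87522379) carry a RefSeq transcript that the RefSeq gene table of the assembly GRCr8 now assigns to Cd244l1, a neighbouring gene of Cd244. The third, A_64_P099521 (chr13:87574290-87574349), lies 47.4 kb further along and carries an accession that was not matched in that table. Of the 11 probes, 10 were matched by accession, and the other 8 matches kept the symbol of the array.

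Only some of the receptors were detected. Taking the brightest probe of each gene, the rat channel passed the background mark on all 24 arrays for Klrk1, on 23 for Klrd1, on 20 for Klre1, on 19 for Cd244 and on 11 for Ncr1. Klrc1, Klrg1 and Ncr3 passed on 0 of 24 arrays. A gene entered the test when 1 or more groups had its probe above background in all 4 rats, and 4 of the 8 genes passed: Klrd1, Klre1, Klrk1 and Cd244. Because a gene can pass through its brightest group alone, the 4 are not an unselected sample of the members.

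**Figure D1:**
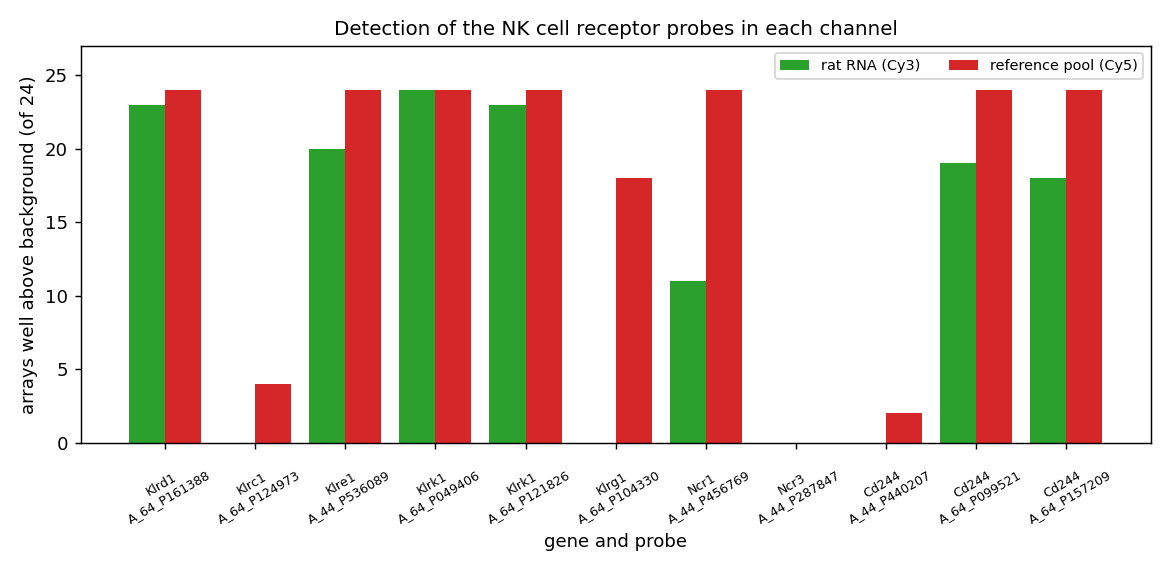
Number of the 24 arrays on which each member probe passed the background mark, in the rat RNA (Cy3) and in the reference pool (Cy5). Klrc1, Klrg1 and Ncr3 have no Cy3 bar, while Klrg1 was above background in the reference on 18 arrays.

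Klrc1, the inhibitory partner of Klrd1, had Cy3 signals from 8.92 to 27.9, and Ncr3, a natural cytotoxicity receptor, from 7.47 to 18.1. The lowest Cy3 signal that was well above background on an array ranged from 36.0 to 118.2, so both lie under what the arrays could measure, and no fold change is given for them. Of the 24 Ncr3 ratios, 16 are listed at exactly 0. Klrg1 had Cy3 signals from 12.8 to 38.9, with 0 arrays above background in that channel. In the reference it was well above background on 18 of 24 arrays. The reference channel detected more probes than the rat channel on every array, so the dye and the pool cannot be told apart here.

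Ncr1, the activating receptor used as a marker of NK cells across mammals, was near the limit of detection. It was well above background on 2 arrays of C-G0, 3 of LPS-G0, 2 of C-G1, 2 of LPS-G1, 1 of C-G2 and 1 of LPS-G2, and therefore was not tested. Its ratios in C-G0 were -0.86, 0.88, 0.20 and -0.28, and in LPS-G0 0.90, 0.03, -0.43 and 0.69. The values of both groups overlapped. Spots of the Ncr1 probe on the same array differed by a median of 0.81 on the log2 scale, against 0.26 for Klre1, 0.16 for Klrd1 and 0.08 for the brighter Klrk1 probe.

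Klre1, the lectin-like receptor of rodents, separated LPS-G0 from C-G0 completely. In C-G0 its log2 ratios were -2.04, -0.01, -0.27 and -0.75, and in LPS-G0 they were 0.38, 0.58, 0.56 and 0.22. All 4 LPS-G0 arrays lay above all 4 C-G0 arrays, and C-G0 replicate 1 stood lowest. Klre1 was well above background on only 2 of the 4 C-G0 arrays, and its dimmest value, on replicate 1, was not above background. The values were -0.23, 0.11, 0.53 and -0.98 in C-G1 and 0.23, -0.18, 0.59 and 0.29 in LPS-G1. The values were -0.32, 0.03, -1.30 and -0.21 in C-G2 and -0.43, 0.10, -0.41 and -0.52 in LPS-G2. On both beta-glucan diets the ranges of the LPS rats and the saline rats overlapped. The group means ran from 0.44 ± 0.17 (SD, n = 4) in LPS-G0 through LPS-G1, C-G1, LPS-G2 and C-G2 to -0.77 ± 0.90 (SD, n = 4) in C-G0.

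Klrd1, the chain that pairs with NKG2 receptors, had the same order of group means as Klre1. Its values were -1.20, -0.37, -0.14 and -0.18 in C-G0 and 0.43, 0.11, 0.39 and -0.15 in LPS-G0. Of the LPS-G0 arrays, 3 lay above all of C-G0 and replicate 4 lay just below the highest. The group means ran from 0.20 ± 0.27 in LPS-G0 through LPS-G1, C-G1, LPS-G2 and C-G2 to -0.47 ± 0.50 in C-G0 (SD, n = 4 each). The other 4 groups ranged from -0.25 to 0.58 in C-G1, from -0.33 to 0.42 in LPS-G1, from -0.62 to 0.34 in C-G2 and from -0.49 to 0.11 in LPS-G2, and all of them overlapped each other.

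The 2 probes of Klrk1 gave different orders. The probe past the stop codon, A_64_P049406, was well above background on every array and represents the gene. Its values were 0.35, 0.15, 0.10 and 0.12 in C-G0, 0.37, 0.47, 0.16 and 0.68 in LPS-G0, and 0.16, -0.04, -0.06 and -0.30 in LPS-G1. The lowest LPS-G0 array and the highest LPS-G1 array were nearly level, and otherwise LPS-G0 lay above LPS-G1. The means were 0.42 ± 0.21 in LPS-G0, 0.20 ± 0.34 in C-G2, 0.18 ± 0.11 in C-G0, 0.12 ± 0.09 in LPS-G2, -0.06 ± 0.19 in LPS-G1 and -0.07 ± 0.16 in C-G1 (SD, n = 4 each), so both G1 groups stood lowest. At the probe over the stop codon, A_64_P121826, C-G1 had the highest mean, 0.34 ± 0.30, and C-G0 the lowest, 0.04 ± 0.58 (SD, n = 4 each).

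Cd244, read by A_64_P099521, had a mean of 0.02 ± 0.55 in C-G1 and of -0.48 ± 0.49 in C-G0 (SD, n = 4 each), with the other groups between. Its values in LPS-G2 were -0.61, 0.69, -0.90 and -0.86. A single rat of LPS-G2 therefore stood far above the other 3, whose signals were not well above background. The probe A_64_P157209, which the reference table assigns to Cd244l1, had group means from 0.08 ± 0.45 in LPS-G0 to 0.33 ± 0.67 in C-G0 (SD, n = 4 each). For the 4 tested genes, the 20 pairs of neighbouring group means had p of 0.114 or higher (two-sided exact permutation tests, lowest adjusted p = 0.971). Neighbours are the closest means by the way they were picked, and 4 against 4 arrays give no p under 0.0286. These tests therefore do not show that groups farther apart are alike.

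**Figure D2:**
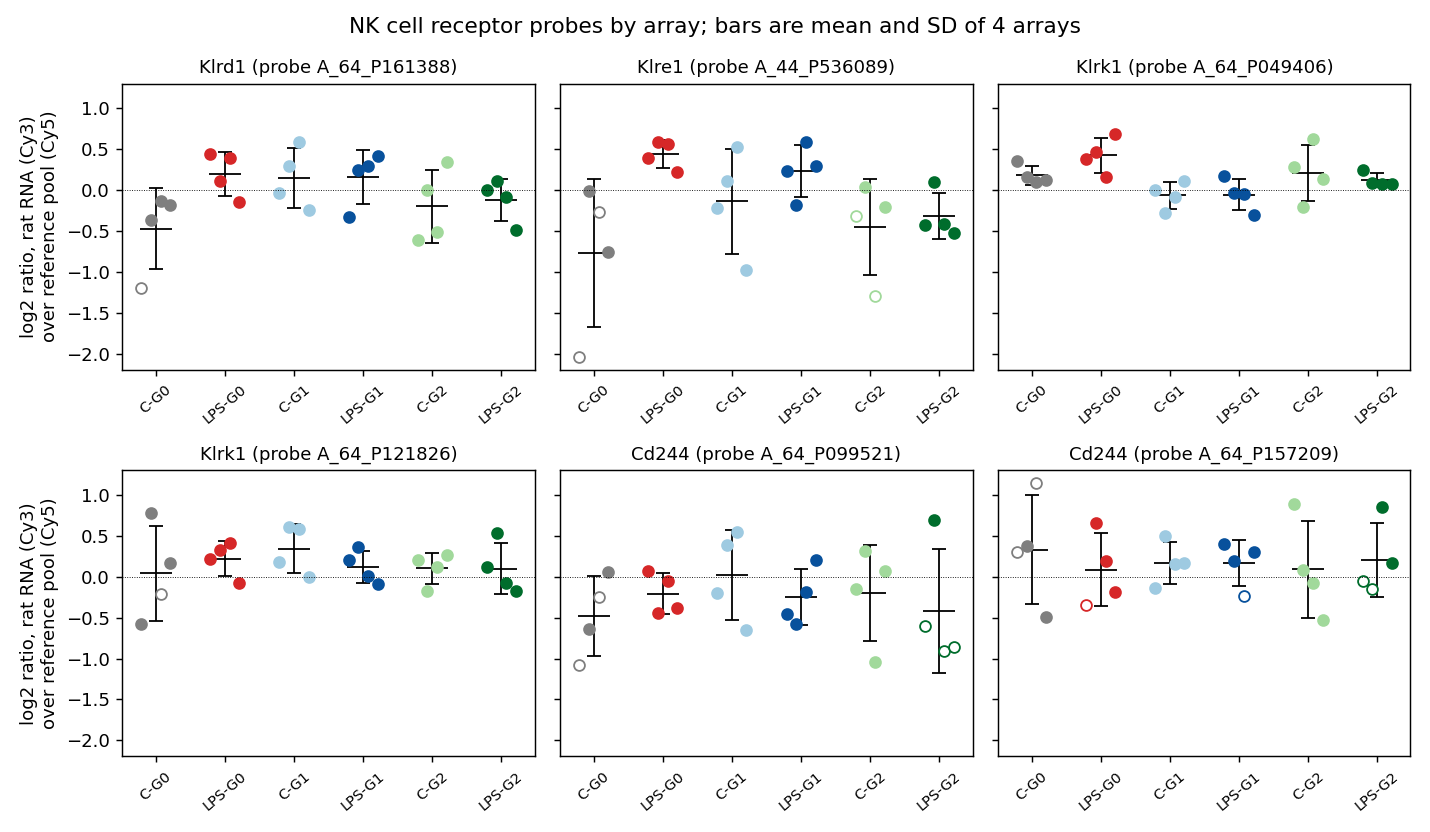
Log2 ratio of rat RNA over reference for the 6 member probes that were tested, by group; each point is 1 array, open points did not pass the background mark in Cy3, and bars are the mean and SD of 4 arrays. Klre1 in C-G0 spans -2.04 to -0.01, below all LPS-G0 arrays, while the 2 Klrk1 probes order the groups differently.

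The first comparison asks what LPS did on the control diet, LPS-G0 vs. C-G0. Klre1 was higher in LPS-G0 by 1.20 on the log2 scale (SE 0.32, 2.31-fold), and Klrd1 by 0.67 (SE 0.24, 1.59-fold). Neither passed the test over all 10313 probes: the adjusted p was 0.218 for Klre1 and 0.230 for Klrd1 in limma, with unadjusted p of 0.00159 and 0.0113. The exact permutation test over the 8 arrays gave p = 0.0286 for Klre1, the smallest it can give, and p = 0.0571 for Klrd1. Klrk1 (0.24, SE 0.14) and Cd244 (0.27, SE 0.32) differed less. A call required both an adjusted p under 0.05 and a 2-fold difference or more. So 0 of the 4 tested members were called in limma, where 0.0097% of all probes were. At an unadjusted p under 0.05, 2 of 4 were higher in LPS-G0 and 0 lower, against 10.7% of all probes higher and 4.44% lower. Groups that do not overlap, with LPS-G0 higher, were found for 3.83% of all probes. The median of the 4 members was 0.47 and that of all probes 0.03. Klre1 was higher in LPS-G0 on each of the 3 slides, by 1.51, 0.84 and 0.97. Klrd1 was higher by 1.06, 0.53 and 0.04. Without the 2 LPS-G0 arrays whose labels conflict Klre1 differed by 1.25 (SE 0.42).

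That comparison changed when the array C-G0 replicate 1 was left out. Without it, Klre1 was higher in LPS-G0 by 0.78 (SE 0.21) with an adjusted p of 0.0304 in limma, and Klrd1 by 0.43. The difference became smaller while its SE fell from 0.32. Over all probes, 1136 of 10338 then had an adjusted p under 0.05, which is 11% of them, in place of 1 of 10313, and among the members 1 of 4 did. Klre1 was then under 2-fold, which it had passed with all arrays.

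The second comparison asks what the high-molecular-weight beta-glucan did in LPS rats, LPS-G1 vs. LPS-G0. Klrk1 was lower in LPS-G1, with -0.48 (SE 0.14, 1.39-fold) and an adjusted p of 0.0443 in limma, the only member with an adjusted p under 0.05 in any comparison. It did not reach 2-fold, so 0 of 4 members were called, where 0.989% of all probes were, and 8.93% of all probes had an adjusted p under 0.05. At an unadjusted p under 0.05, 0 of 4 were higher and 1 lower, against 7.59% and 19.3% of all probes. The exact permutation test gave p = 0.0571. The difference was -0.26, -0.21 and -0.98 within the 3 slides. The probe over the stop codon differed by -0.10 (SE 0.24, adjusted p = 0.795 in limma). The Klrk1 difference was recomputed under 20 alternatives with its own probe, and also with the probe over the stop codon. The adjusted p was above 0.05 in 15 of these, so in most of them. In limma it was 0.0801 with slides as blocks and 0.139 without the 2 LPS-G0 arrays whose labels conflict. Tukey's test, which the methods name, gave 0.147. Klre1 (-0.21), Cd244 (-0.05) and Klrd1 (-0.04) had adjusted p of 0.687 or higher.

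The third comparison asks the same of the low-molecular-weight beta-glucan, LPS-G2 vs. LPS-G0, and shares the LPS-G0 arrays with both comparisons above. For Klre1 all 4 LPS-G2 arrays lay below all 4 LPS-G0 arrays. The difference was -0.75 (SE 0.32, unadjusted p = 0.0311, adjusted p = 0.597 in limma; exact permutation p = 0.0286). For groups that do not overlap in this direction the share over all probes was 7.73%. Klrk1 had -0.30 (SE 0.14, unadjusted p = 0.0476, adjusted p = 0.597 in limma), Klrd1 -0.32 and Cd244 -0.21. Thus 0 of 4 members and 0% of all probes were called, and 2 of 4 members were lower and 0 higher at an unadjusted p under 0.05, against 5.61% and 2.62% of all probes. Without the 2 LPS-G0 arrays whose labels conflict, 5 members passed the filter and 0 of 5 were lower at that level, against 3.08% of all probes. Within the slides the Klre1 difference was -0.91, -0.46 and -0.69. In LPS-G2 vs. LPS-G1, 0 of 4 members and 0% of all probes were called, 0 of 4 had an unadjusted p under 0.05 (4.52% of all probes higher, 2.16% lower), and the largest difference was -0.55 (SE 0.32) for Klre1.

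Among saline rats, C-G1 vs. C-G0 gave 0.62 (SE 0.25) for Klrd1, 0.63 (SE 0.36) for Klre1, 0.50 (SE 0.34) for Cd244 and -0.25 (SE 0.16) for Klrk1. Klrd1 alone had an unadjusted p under 0.05 (0.0223, adjusted p = 0.142 in limma), where 12.1% of all probes were higher and 15.8% lower at that level, and 0 of 4 members were called against 0.028% of all probes. These differences too rest on C-G0 replicate 1: without it Klrd1 differed by 0.38, Klre1 by 0.21, Cd244 by 0.30 and Klrk1 by -0.19, and 0 of 4 members had an unadjusted p under 0.05, against 2.48% of all probes higher and 7.89% lower. Erythroid markers were lower in C-G1 at that level for 4 of 8 genes and higher for 0 (median -0.60), and for 4 of 8 without C-G0 replicate 1 (median -0.50). Their part in the members' values was not tested. In C-G2 vs. C-G0, 0 of 4 members were called against 0.028% of all probes, 0 of 4 had an unadjusted p under 0.05 (5.41% of all probes higher, 7.84% lower), and the differences ran from 0.02 for Klrk1 to 0.32 for Klre1. Without C-G0 replicate 1 the sign for Klre1 turned (-0.10, SE 0.31), Klrd1 had 0.03, and 0 of 4 had an unadjusted p under 0.05, against 4.66% of all probes higher and 8.13% lower.

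LPS was also compared with saline on each beta-glucan diet. In LPS-G1 vs. C-G1, 0 of 4 members were called against 0.00934% of all probes, and in LPS-G2 vs. C-G2 0 of 4 against 0%. At an unadjusted p under 0.05 in limma 0 of 4 were found on either diet, against 1.99% of all probes higher and 0.822% lower on G1, and 0.588% and 0.504% on G2. The largest difference was 0.37 (SE 0.36) for Klre1 on the G1 diet, and it was 0.13 (SE 0.36) on the G2 diet. Averaged over the 3 diets, LPS rats had 0.57 more Klre1 on the log2 scale than saline rats (SE 0.21, unadjusted p = 0.0108, adjusted p = 0.516 in limma, permutation p = 0.0181), and 0 of 4 members were called against 0.0187% of all probes. At an unadjusted p under 0.05, 1 of 4 was higher and 0 lower, against 7.47% and 2.14% of all probes. Within the slides the Klre1 difference was 0.62, 0.26 and 0.84. The other members differed by 0.25 (Klrd1), 0.05 (Klrk1) and -0.07 (Cd244). Without C-G0 replicate 1 the Klre1 difference over the 3 diets was 0.43, the lowest with any 1 array left out. At an unadjusted p under 0.05, 1 of 4 members was then higher and 0 lower, against 12.6% and 6.65% of all probes. The interaction terms, which ask whether the change with LPS differed between diets, had 0 of 4 members called against 0% of all probes. For Klre1 the change with LPS was smaller on G2 than on G0 by 1.07 on the log2 scale, an interaction of -1.07 (SE 0.50, unadjusted p = 0.044, adjusted p = 0.832 in limma). Without C-G0 replicate 1 it was -0.65 (SE 0.42, adjusted p = 0.519 in limma). On G1 the Klre1 interaction was -0.83 (SE 0.50, adjusted p = 0.999 in limma), and -0.41 (SE 0.42, adjusted p = 0.917 in limma) without C-G0 replicate 1. At an unadjusted p under 0.05, 0 of 4 members were found on G1 (1.89% of all probes higher, 1.12% lower) and 1 of 4, lower, on G2 (3.18% higher, 2.39% lower).

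**Figure D3:**
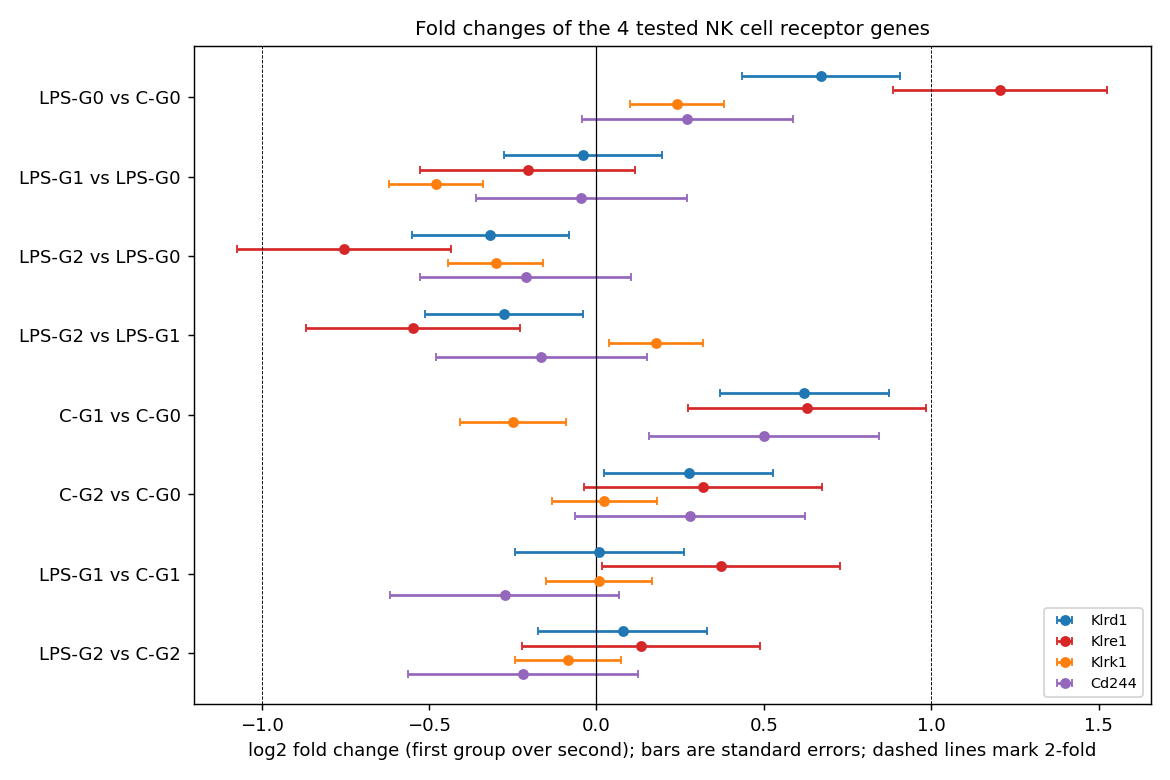
Log2 fold changes of Klrd1, Klre1, Klrk1 (probe A_64_P049406) and Cd244 (probe A_64_P099521) in the 8 comparisons of 2 groups, with standard errors; dashed lines mark 2-fold. Only Klre1 in LPS-G0 vs. C-G0 passes the 2-fold line, at 1.20, and the comparisons share their groups.

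The members did not all vary together over the 24 rats. Klrd1, Klre1 and Cd244 at A_64_P099521 ran together in pairs, and the brighter Klrk1 probe had a negative r with each of them. Klrd1 and Klre1, neighbours in the NK gene complex, varied together (Pearson r = 0.786, Spearman rho = 0.722, permutation p = 2e-05 and 0.00018, adjusted over 15 pairs 3e-04 and 0.00233). Within the slides r was 0.825, 0.768 and 0.711, within groups 0.698, and without the 2 arrays farthest in Klrd1 0.625. Cd244 at A_64_P099521 followed Klrd1 with r = 0.676 (rho 0.70, permutation p = 0.00024 and 0.00031, adjusted p = 0.0018 and 0.00233). Within the slides that r was 0.707, 0.186 and 0.806, and 0.559 without the 2 farthest arrays. The same Cd244 probe followed Klre1 with r = 0.608 (rho 0.572, permutation p = 0.00135 and 0.0043, adjusted p = 0.00675 and 0.0215). Within the slides r was 0.706, 0.272 and 0.581 for that pair, within groups 0.712, and without the 2 farthest arrays 0.417.

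The 2 Klrk1 probes ran differently with the other members. The probe past the stop codon had r = -0.437 with Klrd1 (rho -0.436, permutation p = 0.0335 and 0.0342, adjusted p = 0.0629 and 0.0854), with 0.047, -0.116 and -0.547 within the slides and -0.377 without the 2 farthest arrays. With Cd244 at A_64_P099521 it had r = -0.507 (rho -0.44, permutation p = 0.0109 and 0.032, adjusted p = 0.0328 and 0.0854), with -0.096, -0.27 and -0.443 within the slides and -0.459 without the 2 farthest arrays. With Klre1 it had r = -0.273 (rho -0.177, permutation p = 0.196 and 0.405, adjusted p = 0.326 and 0.553). That r was 0.012, 0.063 and -0.278 within the slides and 0.029 without the 2 farthest arrays. Within groups its r was -0.64 with Klrd1, -0.65 with Cd244 and -0.59 with Klre1, for which no p was computed. The probe over the stop codon had r = 0.525 with Klre1 (rho 0.443, permutation p = 0.00843 and 0.0315, adjusted p = 0.0316 and 0.0854), with 0.79, 0.329 and -0.32 within the slides and 0.329 without the 2 farthest arrays. The same probe had r = 0.494 with Klrd1 (rho 0.394, permutation p = 0.0143 and 0.057, adjusted p = 0.0357 and 0.107), which fell to 0.177 without the 2 farthest arrays and so rests on them. The 2 Klrk1 probes, on 1 transcript, showed no detectable relation over the rats (r = -0.143, rho 0.01, permutation p = 0.508 and 0.979, adjusted p = 0.635 and 0.979; -0.251, -0.060 and 0.173 within the slides; -0.071 without the 2 farthest arrays). The 2 tested probes named Cd244 showed none either (r = -0.228, rho -0.266, permutation p = 0.287 and 0.209, adjusted p = 0.391 and 0.314; -0.209, -0.278 and -0.50 within the slides; -0.169 without the 2 farthest arrays).

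**Figure D4:**
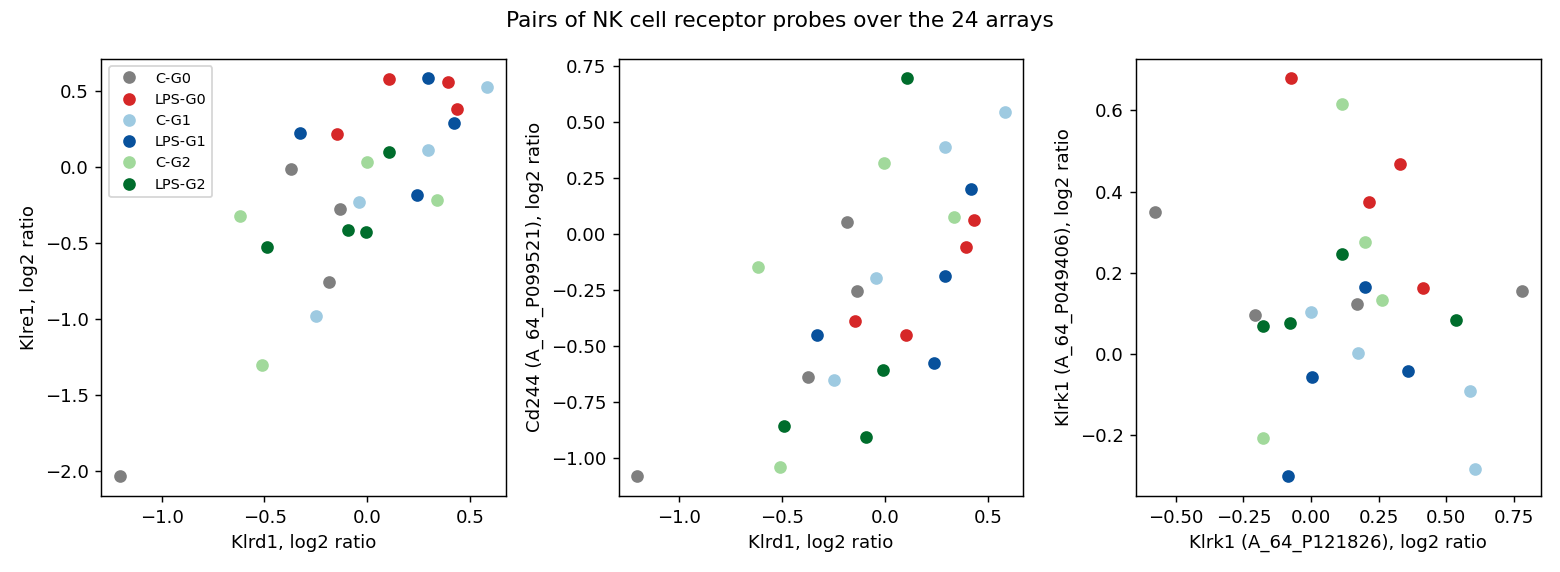
Log2 ratios of pairs of member probes over the 24 arrays, coloured by group: Klrd1 against Klre1, Klrd1 against Cd244 (A_64_P099521), and the 2 Klrk1 probes against each other. Klrd1 and Klre1 run together (r = 0.786) with C-G0 replicate 1 at the lower left, and the Klrk1 probes do not (r = -0.143).

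The mean profile of the 4 tested members was set against the 10670 other tested probes over the 24 arrays, as a description. The Klrk1 probe in that mean had r = -0.437 with Klrd1, -0.273 with Klre1 and -0.507 with Cd244. The profile therefore does not stand for Klrk1. The 10 closest were Gzma (r = 0.881), Faslg (0.879), Klrb1a (0.859), Klri1 (0.841), Gzmb (0.823), Gzmk (0.792), Cdhr1 (0.787), RGD1562667 (0.774), Il2rb (0.769) and Gzmc (0.762). Gzma, Gzmb, Gzmc and Gzmk are granzymes, the proteases of cytotoxic granules, and Faslg is the death ligand of cytotoxic lymphocytes. Klrb1a and Klri1 are further lectin-like NK receptors, and Il2rb is a chain of the receptor for interleukins 2 and 15. For Gzma r was 0.973, 0.861 and 0.865 within the slides. All these points share the reference pool and the same 24 rats.

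Other genes of the pathway were taken from lists, with 1 probe a gene. In LPS-G0 vs. C-G0, 8 of 11 tested cytotoxic effectors were higher and 0 lower at an unadjusted p under 0.05, against 10.7% and 4.44% of all probes. Their median was 0.82 against 0.03 over all probes, and 0 had an adjusted p under 0.05 in limma. The granzymes differed by 1.36 (SE 0.44) for Gzmb, 1.10 (SE 0.25) for Gzmk, 1.24 (SE 0.31) for Gzma, 1.30 (SE 0.33) for Gzmc and 0.82 (SE 0.23) for Gzmm. Without C-G0 replicate 1, 7 of 11 effectors were higher at a median of 0.59, against 17.3% of all probes. An adjusted p under 0.05 was then found for 4 of 11, against 11% of all probes. Of 14 other NK receptors 5 were higher and 1 lower (median 0.34), among them Ly49i2 (0.77, SE 0.21), Klrb1a (0.94, SE 0.29) and Klrc3 (1.04, SE 0.36), relatives of the members that bind MHC class I or lectin ligands. Without C-G0 replicate 1 it was 4 of 14 higher and 0 lower, at a median of 0.19, against 17.3% and 12.2% of all probes.

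The signalling partners and ligands of the receptors gave fewer such genes. In LPS-G0 vs. C-G0, 0 of 17 adaptors and kinases had an unadjusted p under 0.05 (median 0.00), 0 of 3 ligands did, with Cd48, the ligand of Cd244, at -0.22 (SE 0.30), and of 5 transcription factors and cytokine receptors 1 was higher, Il2rb with 0.57 (SE 0.25). In LPS-G1 vs. LPS-G0 the effectors had 0 of 11 genes at an unadjusted p under 0.05 in either direction (median -0.25), the other receptors 2 of 14 higher (Ly49s6 and Slamf6), and the ligands 1 of 3 lower (RT1-S3, -0.41, SE 0.19). Of all probes 7.59% were higher and 19.3% lower there. In LPS-G2 vs. LPS-G0, 2 of 11 effectors were lower, Gzmc by -0.80 (SE 0.33) and Gzmk by -0.52 (SE 0.25), and 0 higher, with a median of -0.35 against -0.02 over all probes. Of all probes 5.61% were lower and 2.62% higher. In the interaction of LPS with the G2 diet, 0 of 12 effectors had an adjusted p under 0.05 in limma (lowest 0.832). At an unadjusted p under 0.05, 8 of 12 were lower and 0 higher (median -0.99 against -0.04), the lowest Gzmb at -1.78 (SE 0.67). Of all probes 2.39% were lower and 3.18% higher. Without C-G0 replicate 1, 3 of 12 effectors were lower, at a median of -0.67, against 4.71% of all probes. In the interaction with the G1 diet, 2 of 12 effectors were lower and 0 higher (median -0.69 against -0.02). Of all probes 1.12% were lower and 1.89% higher there, and the lowest adjusted p of the effectors was 0.999 in limma. Leaving out C-G0 replicate 1 left 1 of 12 lower on G1 (median -0.48), against 1.91% of all probes. The same C-G0 arrays enter C-G2 vs. C-G0, where 8 of 12 effectors were higher and 0 lower (median 0.57), against 5.41% and 7.84% of all probes. Without C-G0 replicate 1, 1 of 12 was higher, against 4.66%. In C-G1 vs. C-G0, 3 of 12 effectors were higher and 0 lower, against 12.1% and 15.8% of all probes. Without that array 0 of 12 were higher, against 2.48%.

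**Figure D5:**
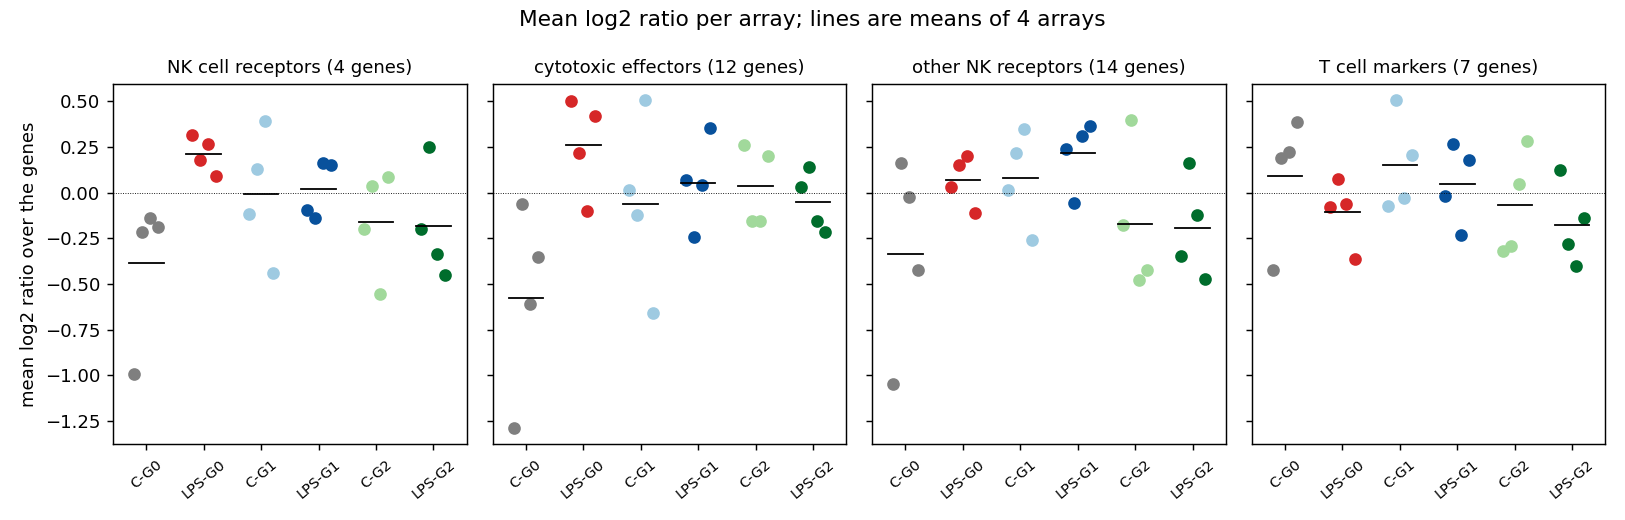
Mean log2 ratio per array over the 4 tested NK cell receptors, 12 cytotoxic effectors, 14 other NK receptors and 7 T cell markers; points are arrays and lines group means. C-G0 replicate 1 is the lowest C-G0 array in all 4 lists, at -0.99 for the members, -1.29 for the effectors and -0.43 for the T cell markers.

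Markers of other blood cells were read beside these results. In LPS-G0 vs. C-G0, of 7 tested T cell markers 0 were higher and 2 lower, Cd8b by -0.59 (SE 0.15) and Cd3e by -0.61 (SE 0.22), with a median of -0.12. At an unadjusted p under 0.05, 10.7% of all probes were higher and 4.44% lower. Without C-G0 replicate 1, 3 of 7 T cell markers were lower, 2 with an adjusted p under 0.05, against 12.2% and 11% of all probes. The level of the T cell markers, as the mean log2 ratio per array, ranged from -0.43 to 0.38 in C-G0 and from -0.36 to 0.08 in LPS-G0. Of 6 neutrophil markers 1 was higher and 3 lower (median -0.54), and the mean ranged from -0.27 to 0.08 in C-G0 and from -0.57 to -0.13 in LPS-G0. Without C-G0 replicate 1, 1 of 6 was higher and 2 lower (median -0.47), and 0 had an adjusted p under 0.05 in limma. Without the 2 LPS-G0 arrays whose labels conflict, 1 of 6 was higher and 0 lower (median -0.53). The neutrophil marker that was higher, Fcgr3a (1.09, SE 0.36), is CD16, an Fc receptor that NK cells carry too and that stands in both lists. Of 5 B cell markers 1 was lower, Ms4a1 by -0.91 (SE 0.35), and 0 of 6 monocyte markers were higher or lower. Without C-G0 replicate 1, 2 of 5 B cell and 2 of 6 monocyte markers were lower and 0 higher. Of these, 2 B cell markers and 1 monocyte marker had an adjusted p under 0.05. The erythroid and platelet markers had 0 in either direction, with or without that array. In LPS-G2 vs. LPS-G0, where the Klre1 difference was -0.75, 4 of 6 neutrophil markers were higher and 0 lower (median 0.62), among them S100a8 (0.92, SE 0.26). Of all probes 2.62% were higher and 5.61% lower. The lowest adjusted p of these neutrophil markers was 0.597 in limma. Of 6 monocyte markers 2 were higher there and 0 lower, Lyz2 (0.87, SE 0.29) and Fcgr1a (0.61, SE 0.25). In LPS-G1 vs. LPS-G0, where the Klrk1 difference was -0.48, 1 of 8 erythroid markers was lower and 0 higher, against 19.3% and 7.59% of all probes. That marker was Epb42 with -0.93 (SE 0.27, adjusted p = 0.0408 in limma), where 8.93% of all probes had an adjusted p under 0.05. In the same comparison 1 of 6 platelet markers was lower and 0 higher, and of 6 monocyte markers 1 was higher and 1 lower. The T cell, B cell and neutrophil markers had 0 in either direction. Blood cells were not counted in these data, and the part of cell numbers in the members' values was not tested.

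Promoter windows of the members were read in the RefSeq table of GRCr8, which has rows for 5 of the 8 genes, Klre1, Klrk1, Klrc1, Ncr3 and Cd244. The 250 bases before the start that this table gives were searched on both strands for the cores TGTGGT (RUNX), GGAAGT (ETS) and AGGTGT (T-box). By the RefSeq gene spans, the windows of Klre1 and Cd244 lie wholly inside the gene, 71 bases of that of Klrk1 and 76 of that of Ncr3 do, and that of Klrc1 lies outside, so the counts over 5 windows are not over upstream sequence alone. TGTGGT was in 3 of 5 windows, those of Klrk1, Klrc1 and Ncr3, and in 14.5% of all 33469 windows. GGAAGT was in 0 of 5, against 19.2% of all, and AGGTGT in 0 of 5, against 11.6%. The part of the Klrk1 window outside the gene, chr4:164778454-164778632 on the minus strand, is shown because Klrk1 is the tested member with such a match, marked in capitals. A match of 6 letters is a description and not a binding site.
Klrk1 upstream: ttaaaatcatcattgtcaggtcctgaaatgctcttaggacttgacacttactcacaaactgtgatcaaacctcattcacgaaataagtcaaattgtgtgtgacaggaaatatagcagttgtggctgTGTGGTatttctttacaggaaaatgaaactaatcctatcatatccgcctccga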

How the data were processed

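The authors scanned two-color Agilent arrays and extracted spot intensities in Agilent Feature Extraction, with background subtraction and a Lowess dye balance. Its version is 10.10.1.1 per the file headers and 10.7.3.1 per the submitters' notes. The deposited log10 ratios are Cy5 over Cy3, and 1511424 of 1511424 ratios of the authors' series-wide values were identical to them. They were turned to log2 of Cy3 over Cy5. The software's outlier spots, 679 to 1133 on an array, were not used, and spots of a probe were averaged. A probe counted as well above background when at least 0.5 of its spots were. Differences were tested in limma 3.58.1 (R 4.3.3, with package data.table at version 1.17.8), with 16 arrays for the study's 4 groups (10313 probes) and 24 for the others (10708 probes), two-sided, with Benjamini-Hochberg adjustment over all probes. Single values were tested by exact permutation over 70 arrangements of 8 arrays (smallest p 0.0286), and by 1e+05 resamples over 24. The fit was tested on simulated data. Arrays lay on 3 slides, each with all 6 groups. Arrays with the same replicate number had mean correlations from -0.046 to 0.329, and those with other numbers from -0.111 to 0.015. The gap was widest in C-G2 vs. C-G0, with 0.329 against -0.111. Not every pair was above 0.1, so numbers were not used as pairs. The main fit held neither numbers nor slides, and both entered as blocks in alternatives. No pair of arrays was identical (0 of 276). The precision is limited by 4 arrays per group. The members and lists were chosen with earlier results of these data known. Members with several probes were represented by the brightest, and genes most like the members by the highest Pearson r. Alternatives covered weights, variance trend, slide, background, the Cy3 intensity alone, filters, arrays left out, other probes and the methods' test.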

Additional observations from a re-analysis of the deposited data

Results flagged for a closer look

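Among 36 sets of 4 arrays (6 tested member probes in 6 groups), 1 held an array far from the other 3. Klrk1 at A_64_P049406 in LPS-G2 was 0.25 in replicate 1 and between 0.07 and 0.08 in the others, a gap of 0.914 of the range, where chance flags about 1 set in 20. Signal outside the rat channel was seen for 3 probes that were well above background on 0 arrays in Cy3. In the reference pool, Klrg1 was well above background on 18 arrays, Klrc1 on 4 and Cd244 at A_44_P440207 on 2, of 24 each. None of the 12 interaction terms of the tested member probes had an adjusted p under 0.05.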

How the results depend on the processing

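In all 11 comparisons, 0 members were called under every alternative run. At an unadjusted p under 0.05, limma found 2 members in LPS-G0 vs. C-G0 and Tukey's test 1. Of 989 fold changes recomputed, 958 stayed on their side of an adjusted p of 0.05 and moved by less than the spread between replicates. Another 14 stayed on their side and moved further, 15 lost an adjusted p under 0.05, 2 gained it and 0 reversed. Of the 989, 48 changed sign. The 989 recompute 44 results, of which only Klrk1 in LPS-G1 vs. LPS-G0 had an adjusted p under 0.05 in the main fit. The other results had none to lose, so staying on their side shows little. The 15 are Klrk1 in LPS-G1 vs. LPS-G0, recomputed under 20 settings with its own probe and also with the other probe. In 15 of these, so in most, the adjusted p rose to between 0.0801 (slide as a block) and 0.795 (the other probe). Leaving out each array in turn gave between -0.57 and -0.39, with an adjusted p from 0.0244 to 0.151. The 2 are Klre1 in LPS-G0 vs. C-G0, with array weights (0.82, adjusted p = 0.0393) and without C-G0 replicate 1 (0.78, 0.0304). With normexp and loess Klre1 differed by 0.38 there. The replicate block left the call of each member as it was, with an adjusted p of 0.124 for Klre1 in LPS-G0 vs. C-G0 and 0.0367 for Klrk1 in LPS-G1 vs. LPS-G0, and the numbers are not known to pair the rats. Tukey's test was not run for the LPS effect over the 3 diets or the interactions, nor the compared groups alone for the former. The other probe and the counts without doubted arrays were chosen after seeing the data. Dim signals limit Ncr1, Klrc1, Klrg1 and Ncr3.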
